A study of Homo sapiens with 12 samples.

Results

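The survival genes described here are the inhibitor of apoptosis (IAP) genes BIRC2, BIRC3, BIRC5, BIRC7 and XIAP, the BCL2-type genes BCL2, BCL2L1, BCL2A1 and MCL1, and their death-promoting antagonist BCL2L11. They were chosen by name, and all 10 were found by Ensembl ID among the 60675 gene IDs of each deposited count table. The cells were A375/211, an A375 derivative that overexpresses MIR211, and A375, a human melanoma line with a mutant BRAF gene, which was the reference. Neither the way MIR211 was introduced nor whether A375/211 is 1 clone was stated in the sources used, so an effect of MIR211 cannot be separated from other differences between the lines. Each line gave 2 RNA-seq libraries of total RNA, lettered a and b, from cells with no further treatment named. Each line also gave 1 BRIC-seq library at 0, 1, 3 and 6 h after 24 h of growth with 5-bromouridine (BrU), a uridine analogue that marks newly made RNA so that it can be captured and followed as it disappears. The labels do not say that replicate libraries came from separate cultures, so the RNA-seq p-values measure the spread between these libraries, which may be technical. BRIC-seq had 1 library per line and time, so its p-values do not measure a spread between replicates. They measure departures from the fitted model, which is a straight line in hours or a line difference shared by all times.

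IAP proteins carry the BIR fold. XIAP binds and blocks caspases, the proteases that carry out apoptosis. The cellular IAPs encoded by BIRC2 and BIRC3 are ubiquitin ligases of tumour necrosis factor receptor complexes, where they shape NF-kB signalling. The BCL2 family works one step earlier, at the mitochondrion: BCL2, BCL-xL (from BCL2L1), A1 (from BCL2A1) and MCL1 hold the pore-forming proteins BAX and BAK in check, and BH3-only proteins such as BIM (from BCL2L11) release them. In melanoma BIRC7 (livin) and BCL2A1 are known for their link to MITF, the master transcription factor of melanocytes, and miR-211 is itself made from a MITF-driven gene.

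The RNA-seq libraries held 34130525 and 30528273 counts in A375/211, and 20847481 and 28372099 in A375. BRIC-seq was shallower, with 2783520, 4534806, 6255576 and 6663297 counts in A375/211 and 2671651, 3949014, 6807681 and 7279038 in A375 at 0, 1, 3 and 6 h. The overexpressed locus MIR211 had 36 and 18 RNA-seq counts in A375/211, against 0 and 0 in A375. In BRIC-seq it had 9, 11, 2 and 3 counts in A375/211 at 0, 1, 3 and 6 h, against 0 at all 4 times in A375. All 8 melanocyte lineage markers had RNA-seq counts in either line, with summed levels of 300.4 to 335 CPM (counts scaled to library size) in A375/211 and 467 to 469 CPM in A375, whereas TYR was at 0 in every BRIC-seq library. These markers did not move as one. Of the 6 tested in RNA-seq, 2 had a log2 fold change above 0 and 4 below, and edgeR called MITF alone, as lower in A375/211. In BRIC-seq with times matched, edgeR called PMEL and DCT as higher and SOX10 as lower.

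The mature miR-211-5p sequence and its matches are shown because MIR211 is what was added to the cells. The seed, bases 2 to 8, is in capitals (RefSeq, hg38, chr15:31065095-31065116, minus strand).
hsa-miR-211-5p: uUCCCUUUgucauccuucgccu
The 7-base seed match AAAGGGA, read on the transcript strand, lies in 4 of the 10 members' 3′ untranslated regions (UTRs; canonical GENCODE 44 transcripts, hg38). It lies in 17.6% of all 19183 annotated 3′ UTRs, and among UTRs of like length in 4.54% (BIRC2), 45.3% (BCL2), 15.8% (BCL2L1) and 32.2% (MCL1). The capitals below mark it, and in MCL1 they mark a pair of overlapping matches.
BIRC2 (chr11:102378261-102378267, plus strand): cacttgaagccatctaaagtaaAAAGGGAa
BCL2 (chr18:63128410-63128416, minus strand): gtcgaatcagctatttactgccAAAGGGAa
BCL2L1 (chr20:31665042-31665048, minus strand): caggggactcagccctgaggtgAAAGGGAg
MCL1 (chr1:150574828-150574840, minus strand): tcgggcaaatcctccaAAAGGGAAAGGGAg
The other 6 members lack these 7 letters in these UTRs, and other kinds of miR-211 site are not given here. A match is a run of letters, and binding was not measured.

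In total RNA, BIRC7 was the member that differed between the lines by the test across all genes. It had 0.0884 and 0.129 CPM (3 and 4 counts) in A375/211, against 32.1 and 31.0 CPM (654 and 892 counts) in A375. The lines were far apart and the replicates within a line were close. The log2 fold change was -8.13 (SE 0.30, n = 2 libraries per line, Benjamini-Hochberg adjusted p = 0.0167 by edgeR's quasi-likelihood test). Of the 19258 genes tested 0.379% passed, 0.171% as higher and 0.208% as lower. BIRC7 (ENSG00000101197, chromosome 20, 63235883 to 63240495, hg38) passed the filter on low counts only through A375. Its adjusted p was 0.0576 without A375 library a, 0.0942 without A375 library b and 0.0509 without A375/211 library a, with log2 fold changes between -7.87 and -8.41 when any 1 library was left out. In such bulk RNA, fewer expressing cells and less RNA per cell cannot be told apart.

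BCL2A1 (ENSG00000140379, chromosome 15, 79960892 to 79971196) lay on the other side. Its level was 20.8 and 15.1 CPM in A375/211, against 4.03 and 3.58 CPM in A375. Both A375/211 libraries lay above both A375 libraries. The log2 fold change of 2.24 (SE 0.26) did not pass in edgeR (adjusted p = 0.0615). It passed with DESeq2 (adjusted p = 2.49e-08), with no filter on low counts (0.0353) and with the library letter as a block (0.0436).

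The other 8 members did not pass. BIRC3, the second cellular IAP gene, had 97.6 and 83.8 CPM in A375/211, against 78.0 and 23.7 CPM in A375 (log2 0.84, SE 0.57, edgeR adjusted p = 0.703). The A375 libraries differed widely, and the fold change was 1.93 without A375 library a and 0.22 without A375 library b. BIRC2, its neighbour 7807 bases downstream on chromosome 11, had 39.3 and 59.1 CPM in A375/211, against 58.4 and 39.0 CPM in A375, and the lines overlapped (log2 0.02, SE 0.31). XIAP had 63.4 and 22.9 CPM in A375/211, against 84.4 and 46.0 CPM in A375 (log2 -0.59, SE 0.56), again with overlap. BIRC5 (survivin), which also serves the chromosomal passenger complex in mitosis, had 22.4 and 30.8 CPM in A375/211, against 47.9 and 30.8 CPM in A375 (log2 -0.56, SE 0.30, edgeR adjusted p = 0.605). Its groups came close to touching at 30.8 CPM.

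Among the BCL2 genes MCL1 was the most abundant, at 675 and 496 CPM in A375/211, against 787 and 372 CPM in A375 (log2 0.02, SE 0.41). The A375 libraries enclosed those of A375/211. BCL2 was at 5.48 and 5.98 CPM in A375/211, against 7.22 and 6.68 CPM in A375, without overlap but by a small step (log2 -0.28, SE 0.22, edgeR adjusted p = 0.769). BCL2L1, whose splice forms either protect or kill and are counted together here, had 21.0 and 25.5 CPM in A375/211, against 20.003 and 23.4 CPM in A375 (log2 0.10, SE 0.20). The BIM gene BCL2L11 had 3.95 and 6.44 CPM in A375/211, against 5.75 and 3.97 CPM in A375 (log2 0.10, SE 0.36). In both genes the lines overlapped.

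Counted over the 10 members, the libraries of the lines did not overlap for 5: A375/211 was above for 2 (BIRC3, BCL2A1) and below for 3 (BIRC5, BIRC7, BCL2). Over all genes tested 20.7% lay above, 20.3% below and 41% in either direction. The members' median log2 fold change was 0.02, beside -0.003 for all genes tested.

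**Figure D1:**
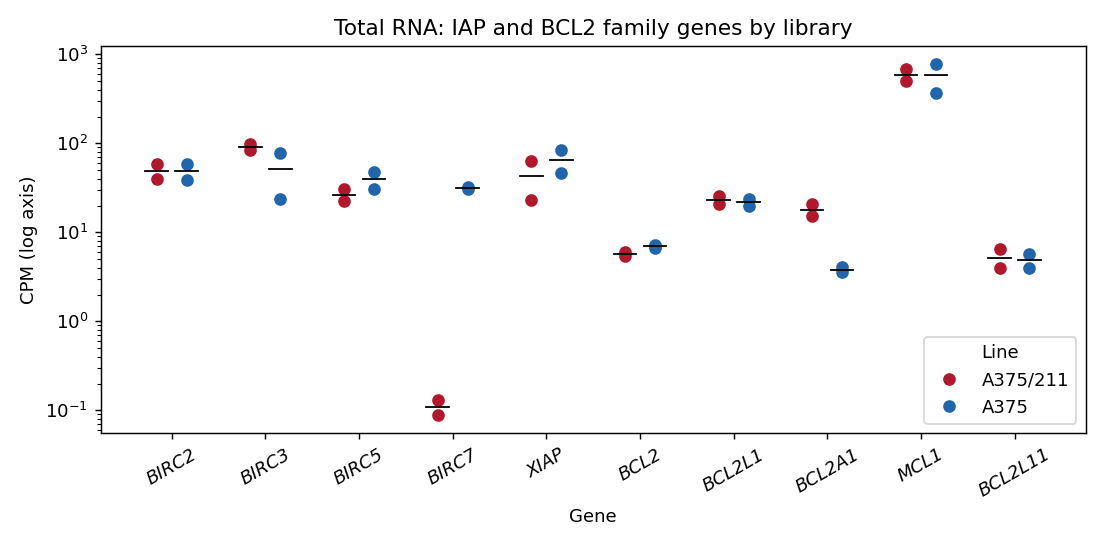
Level of each gene in total RNA by library, in CPM on a log axis, with A375/211 in red left of A375 in blue and bars at the mean of 2 libraries. BIRC7 is near 0.1 CPM in A375/211 and above 30.8 CPM in A375, BCL2A1 is higher in both A375/211 libraries, and the other pairs lie close together or overlap.

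Per kilobase of annotated exon (RPKM, comparable between genes), MCL1 led in both lines, at 94.2 ± 20.3 in A375/211 and 93.2 ± 47.2 in A375 (SD, n = 2). In A375/211 BCL2A1 came next at 18.0 ± 4.06 RPKM, then BIRC3 at 12.1 ± 1.30 and BIRC2 at 10.9 ± 3.11 RPKM, which overlapped each other. BIRC5, BCL2L1 and XIAP followed at 6.97, 5.55 and 4.53 RPKM, each overlapping its neighbour in that order. BCL2L11 was at 0.770, BCL2 at 0.454 and BIRC7 last at 0.0702 RPKM, each apart from its neighbours.

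In A375 the place after MCL1 was held by BIRC7, at 20.4 ± 0.502 RPKM. BIRC2, BIRC5, XIAP, BIRC3 and BCL2L1 followed at 10.8, 10.3, 6.85, 6.80 and 5.17 RPKM, each overlapping the next. BCL2A1 came after them at 3.83 ± 0.317 RPKM, and BCL2L11 (0.721) and BCL2 (0.551) closed the order without overlap.

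MITF, which is known to act on BIRC7, BCL2A1 and BCL2, was at 38.8 and 49.0 CPM in A375/211, against 253 and 244 CPM in A375 (log2 -2.50, SE 0.20, edgeR adjusted p = 0.0448). The MITF call was lost without A375 library a, A375 library b or A375/211 library a. The promoters of BIRC7 and BCL2A1 are shown since these are the members with the largest RNA-seq differences, in opposite directions. Both hold CATGTG, a form of the E-box that MITF is known to bind. Each is 250 bases before to 50 after a RefSeq start (GRCh38.p14), with CATGTG in capitals, 27 bases before the start in BIRC7 and 25 before it in BCL2A1.
BIRC7 (chr20:63235655-63235954, plus strand): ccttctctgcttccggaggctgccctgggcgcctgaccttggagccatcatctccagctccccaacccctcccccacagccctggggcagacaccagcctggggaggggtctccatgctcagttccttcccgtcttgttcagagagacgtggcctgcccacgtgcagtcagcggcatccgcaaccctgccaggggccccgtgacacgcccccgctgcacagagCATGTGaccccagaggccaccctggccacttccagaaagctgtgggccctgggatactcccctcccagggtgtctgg
BCL2A1 (chr15:79971147-79971446, minus strand): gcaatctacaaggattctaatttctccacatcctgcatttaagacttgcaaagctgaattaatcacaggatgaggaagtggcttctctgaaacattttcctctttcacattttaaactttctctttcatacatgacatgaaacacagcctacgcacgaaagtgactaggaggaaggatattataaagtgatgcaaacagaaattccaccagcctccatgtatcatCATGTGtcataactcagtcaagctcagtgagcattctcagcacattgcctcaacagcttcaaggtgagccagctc
Searched on both strands as CATGTG or CACATG, the motif was present in 11.1% of 35116 such windows. Of the 8 members with a window in the table, it was found in 4, the others being BIRC3 and XIAP, and was absent from the windows of BIRC2, BCL2, BCL2L1 and BCL2L11. Other E-box letters were not searched, such as CACGTG, which also lies unmarked in the BIRC7 window. MITF binding was not measured.

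BrU-labelled RNA gave a different picture of the line difference, led by BIRC3. With the times matched, BIRC3 was 41.7-fold higher in A375/211 (log2 5.38, SE 0.33, edgeR adjusted p = 0.00025). Its level was 212, 309, 103 and 53.9 CPM in A375/211 at 0, 1, 3 and 6 h (779, 1556, 599 and 220 counts), against 8.54, 3.81, 3.45 and 0.603 CPM in A375 (29, 18, 25 and 3 counts). Every A375/211 library lay above every A375 library. The ratio was lowest at 0 h, at 24.8 (95% counting interval 17.1 to 37.3), and highest at 6 h, at 89.4 (30.2 to 437), where the A375 count was 3. BIRC3 passed the filter on low counts only through A375/211. Its line difference passed in all 16 alternatives run, no filter among them, with log2 values between 4.90 and 5.76.

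The RNA-seq and BRIC-seq values of BIRC3 differed as to the line effect. In A375/211 its mean was 90.7 ± 9.75 CPM in RNA-seq (SD, n = 2), and BRIC-seq lay between 53.9 and 309 CPM. In A375 it was 50.9 ± 38.5 CPM in RNA-seq (SD, n = 2), while the highest of the 4 BRIC-seq libraries was 8.54 CPM. A test of the line difference in BRIC-seq minus that in RNA-seq, added after the values were seen, gave a log2 of 4.58 for BIRC3 (SE 0.71, edgeR adjusted p = 0.00856). Of 12677 genes 5.35% passed that test, 3.26% as higher and 2.09% as lower in BRIC-seq than in RNA-seq, and BIRC3 was the 1 member among 8 that did. The log2 was 3.50 without A375 RNA-seq library a and 5.18 without library b, and the adjusted p was 0.0585 without A375/211 RNA-seq library b.

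Some markers of other cell types were also higher in A375/211 in BRIC-seq. The 4 endothelial markers summed to 27.5–46.7 CPM in A375/211, against 1.06–4.12 CPM in A375. The 6 fibroblast markers summed to 26.9–149 CPM in A375/211, against 2.33–14.7 CPM in A375. The 6 leukocyte markers summed to 6.54–51.5 CPM in A375/211, against 1.69–7.43 CPM in A375. Of the genes tested, KDR was higher in the endothelial list (1 of 1), LUM in the fibroblast list (1 of 2) and LYZ in the leukocyte list (1 of 1). The defining markers CDH5, VWF, PTPRC and CD3E were at 0 in all 8 BRIC-seq libraries. The 5 keratinocyte markers summed to 1.39–2.70 CPM in A375/211, against 1.21–4.12 CPM in A375. In RNA-seq the endothelial sum was 6.04–9.19 CPM in A375/211, against 3.58–4.18 CPM in A375. The fibroblast sum there was not raised, at 26.2–27.1 CPM in A375/211, against 26.6–61.6 CPM in A375. Nor was the leukocyte sum, at 0.938–1.47 CPM in A375/211, against 1.36–3.05 CPM in A375. The part of these markers in the BIRC3 result was not tested.

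A further 3 members passed the matched-time test, in which 25.9% of 13703 genes passed, 13.6% as higher and 12.3% as lower. BCL2 had 12.5, 12.5, 6.90 and 5.39 CPM in A375/211 at 0, 1, 3 and 6 h, against 8.83, 7.40, 3.04 and 2.01 CPM in A375 (log2 0.91, SE 0.22, edgeR adjusted p = 0.0266). Like BIRC3, BCL2 passed the filter on low counts only through A375/211, and its call was kept with no filter. BIRC2 had 71.5, 84.7, 57.8 and 24.0 CPM in A375/211, against 58.3, 66.6, 37.5 and 13.9 CPM in A375 (log2 0.50, SE 0.12, edgeR adjusted p = 0.0308). Both genes were higher in A375/211 at each of the 4 times. BCL2L11 went the other way, with 14.4, 6.54, 2.59 and 3.19 CPM in A375/211, against 23.0, 8.67, 5.24 and 8.64 CPM in A375 (log2 -0.84, SE 0.22, edgeR adjusted p = 0.0360). It was lower at all 4 times.

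These 3 calls depended on single libraries, and those of BIRC2 and BCL2 also on the scaling. The calls of BCL2 and BIRC2 were each lost on leaving out either line's 1, 3 or 6 h library (6 of 8 single libraries), and that of BCL2L11 was lost whichever of the 8 was left out. With the 10 glycolytic mRNAs held constant, which moved the median log2 over all genes from -0.05 to -0.53, BIRC2 was at 0.02 and BCL2 at 0.43 and neither passed, while BIRC3 (4.90) and BCL2L11 (-1.32) did. Under that scaling 87.9% of the genes called were lower in A375/211, against 47.4% with the usual scaling and 58.6% with total counts.

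The remaining 4 members were not called by edgeR, while DESeq2 called MCL1 as higher (log2 0.50, DESeq2 adjusted p = 0.0424). MCL1 had 157, 127, 16.7 and 22.1 CPM in A375/211, against 128, 120, 10.1 and 11.7 CPM in A375 (log2 0.46, SE 0.16, edgeR adjusted p = 0.0799). BCL2L1 had 6.25, 6.74, 5.34 and 2.94 CPM in A375/211, against 4.12, 5.07, 3.73 and 1.00 CPM in A375 (log2 0.66, SE 0.25, edgeR adjusted p = 0.100). Both were above A375 at each time, by counts as low as 5 for BCL2L1, and MCL1 was at -0.02 with the glycolytic mRNAs held constant. BIRC5 (log2 -0.24, SE 0.23) was above A375 at 0 and 1 h and below it later, and it passed as lower with the glycolytic mRNAs held constant (log2 -0.72, edgeR adjusted p = 0.0361).

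XIAP lay below A375 at the start of the chase and above it from 1 h on. It had 29.6, 79.9, 49.5 and 18.1 CPM in A375/211, against 65.9, 67.0, 28.7 and 6.83 CPM in A375. The ratio was 0.449 at 0 h (95% counting interval 0.354 to 0.567), 1.19 at 1 h, 1.72 at 3 h and 2.65 at 6 h (1.75 to 4.11). The matched-time log2 of 0.28 (SE 0.39) averages over these, and it was 0.79 without the 0 h libraries and -0.21 with the glycolytic mRNAs held constant.

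In all, A375/211 was above A375 at all 4 times for 5 of the 8 members tested (BIRC2, BIRC3, BCL2, BCL2L1, MCL1) and below for 1 (BCL2L11), beside 22.9% and 25.3% of all genes tested. The members' median log2 was 0.48, against -0.05 over all genes.

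**Figure D2:**
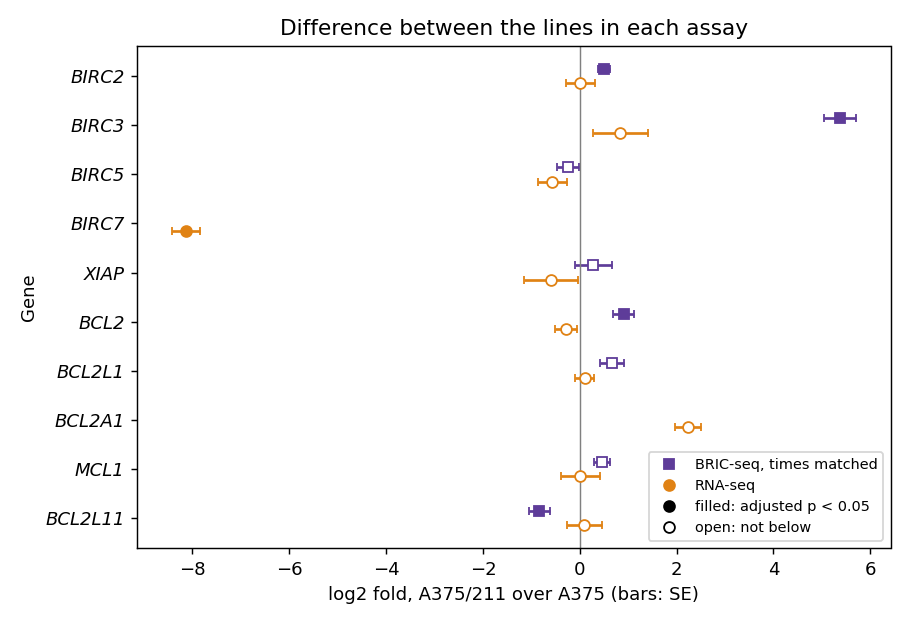
Log2 fold change of A375/211 over A375 for each gene in BRIC-seq with times matched (purple squares) and in RNA-seq (orange circles), bars showing the standard error and filled symbols an adjusted p under 0.05. BIRC3 stands at 5.38 in BRIC-seq and 0.84 in RNA-seq, BIRC7 at -8.13 in RNA-seq, and BIRC7 and BCL2A1 have no BRIC-seq value.

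BIRC7 and BCL2A1 were too rare in BRIC-seq to be tested. BIRC7 had no count in any of the 8 libraries. In A375 that count of 0 allows up to 0.147 CPM over the 4 libraries together, although RNA-seq gave 31.6 CPM there. Of 5590 genes with an A375 RNA-seq level between 15.8 and 63.2 CPM, 35 (0.626%) were likewise at 0 in all 4 A375 BRIC-seq libraries. BCL2A1 had 5, 5, 4 and 0 counts in A375/211 at 0, 1, 3 and 6 h, against 0 at all 4 times in A375. The pooled A375/211 level of 0.753 CPM was 5.11 times a floor of 0.147 CPM, set by 3 counts over the A375 libraries. That ratio leaves out the counting error of the 14 A375/211 counts, so it is not a lower bound. BCL2A1 had lower counting limits of 0.846, 0.860 and 0.825 for the ratio of the lines at 0, 1 and 3 h. Each of these intervals includes no difference. The BCL2A1 total of 14 counts in A375/211 stood beside 17.9 CPM in RNA-seq. It was not exceeded by 7.83% of the 5239 genes with an A375/211 RNA-seq level between 8.97 and 35.9 CPM. The intervals and floors here cover counting error only.

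Over the chase, labelled RNA of 7 of the 8 members tested fell and that of BIRC5 rose, each against the labelled RNA as a whole. A slope is given in log2 CPM per hour, averaged over the lines. Of all 13703 genes 34.4% fell, 29.9% rose and 64.3% did one or the other, and the median slope was -0.31 for the members and -0.04 for all genes. The total itself shrinks over a chase, so a slope ranks transcripts and is not a decay rate. With the glycolytic mRNAs held constant the median slope of all genes moved to -0.52 and 99.9% of the genes called fell, against 53.5% with the usual scaling and 79.7% with total counts.

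MCL1, whose mRNA and protein are known to be short-lived, had the steepest slope, -0.58 per hour (SE 0.12, edgeR adjusted p = 0.00321). Its course was a step. From 1 to 3 h the level dropped to 0.132 of its earlier value in A375/211 (95% counting interval 0.106 to 0.164) and to 0.0839 in A375 (0.0648 to 0.107), whereas from 3 to 6 h the ratio was 1.32 in A375/211 (0.979 to 1.78) and 1.16 in A375 (0.805 to 1.66). The straight line fitted to hours therefore describes it poorly, and without the 6 h libraries the slope was -1.22. At 6 h MCL1 had 90 counts in A375/211 and 58 in A375. ADAMTSL4, which shares exonic bases with MCL1, had 63 counts in A375/211 and 35 in A375 at that time. Its part in the MCL1 values from 3 to 6 h was not tested.

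Among the IAP genes BIRC3 had a slope of -0.44 (SE 0.07, edgeR adjusted p = 0.000811), XIAP -0.40 (SE 0.11, adjusted p = 0.00993) and BIRC2 -0.33 (SE 0.05, adjusted p = 0.000717). BIRC3 first stood at 146% of its 0 h level in A375/211 at 1 h, against 44.6% in A375, and was at 25.5% in A375/211 and 7.06% in A375 at 6 h. BIRC2 was at 33.6% in A375/211 and 23.8% in A375 at 6 h. XIAP was at 270% in A375/211 and 102% in A375 at 1 h, and at 61.2% in A375/211 and 10.4% in A375 at 6 h.

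BIRC5 alone among the members rose, with a slope of 0.37 per hour (SE 0.09, edgeR adjusted p = 0.00583), but it was -0.11 and not called with the glycolytic mRNAs held constant, and 0.21 and not called with total counts. It had 7.07, 21.2, 24.997 and 37.0 CPM in A375/211 at 0, 1, 3 and 6 h, against 5.89, 16.5, 43.0 and 52.8 CPM in A375. The level climbed at each step in both lines.

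The fitted mean slopes of BCL2, BCL2L1 and BCL2L11 were less steep than those of BIRC2, BIRC3 and XIAP. That contrast was not tested. BCL2 had a slope of -0.29 (SE 0.06, edgeR adjusted p = 0.00266) and ended at 43.1% of its 0 h level in A375/211 and 22.7% in A375. BCL2L1 had -0.25 (SE 0.07, edgeR adjusted p = 0.0161) and ended at 47.0% in A375/211 and 24.4% in A375. BCL2L11 had -0.27 (SE 0.10, edgeR adjusted p = 0.0369), with most of its loss in the first hour, after which 45.4% was left in A375/211 and 37.7% in A375. Its call was lost without both 0 h libraries (-0.10), with DESeq2 and with another scaling. Leaving out both 6 h libraries kept 4 members called, MCL1, BIRC5, BCL2 and BCL2L11, and 5197 of all genes in place of 8815.

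**Figure D3:**
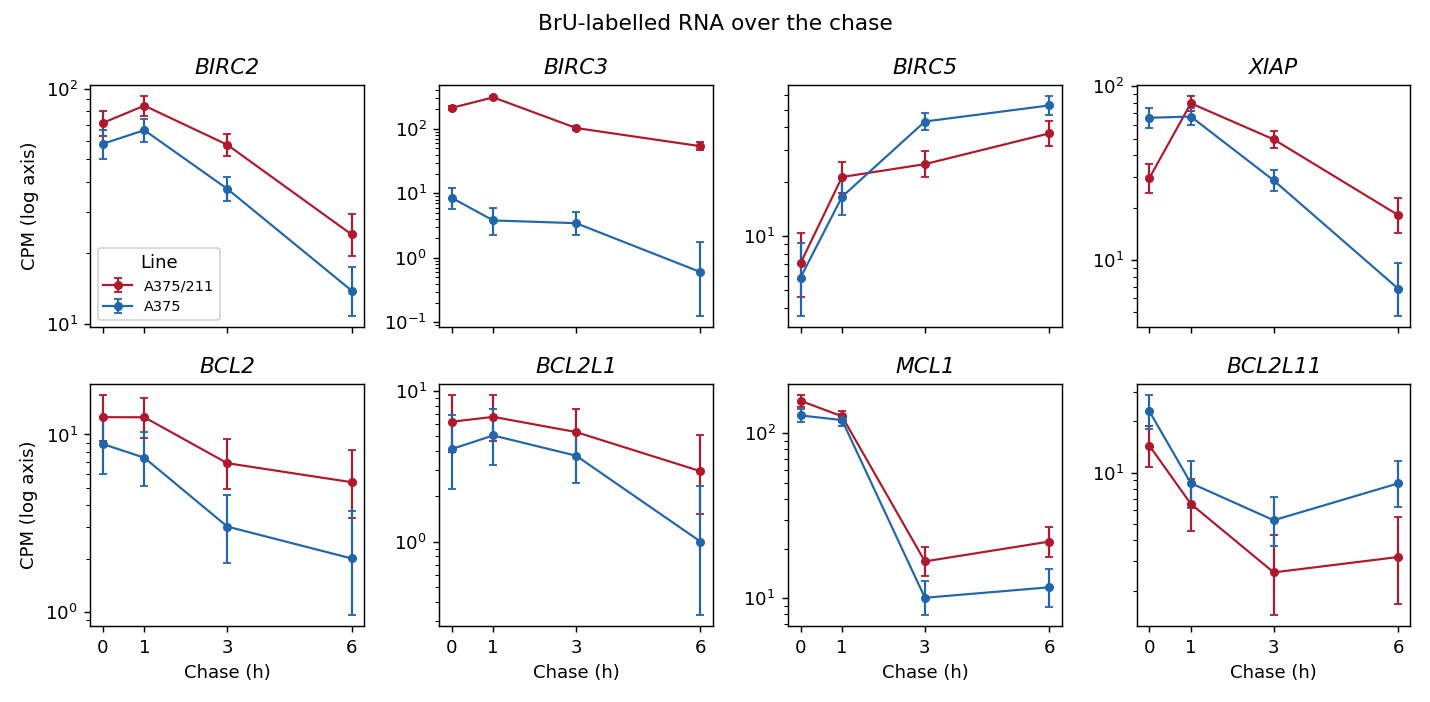
Level of BrU-labelled RNA in CPM (log axis) against hours of chase for the 8 members tested, A375/211 in red and A375 in blue, 1 library per point with 95% counting intervals. BIRC3 is separated between the lines at every time, MCL1 drops between 1 and 3 h in both, BIRC5 climbs, and the XIAP curves cross between 0 and 1 h.

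Within A375/211 the fall passed for 4 members (BIRC2, BIRC3, BCL2, MCL1), beside 42.9% of all genes, 21% falling and 21.9% rising. Within A375 it passed for 6 (those 4 with XIAP and BCL2L1) and BIRC5 rose, beside 47.2% of all genes, 24.2% falling and 23% rising. In A375/211 the calls of BCL2 and MCL1 were lost in 12 and 10 of 16 alternatives, RLE scaling among them, and XIAP, BCL2L1 and BCL2L11 were called as falling with total counts. XIAP had a slope of -0.24 (SE 0.14) in A375/211 and -0.57 (SE 0.14) in A375. That pair was the widest apart, and the difference of 0.33 per hour (SE 0.18) had an unadjusted p of 0.110 in edgeR and did not pass. It was 0.14 without the A375/211 0 h library. XIAP was then called as falling in A375/211, as it was without both 0 h libraries. The slope was higher in A375/211 for 6 of the 8 members, beside 6930 of all 13703 genes, and the differences of BIRC2, BIRC3, BCL2L1 and MCL1 took the other sign in 1 to 3 alternatives. The differences lay between -0.17 and 0.33 per hour with standard errors from 0.10 to 0.24. No member and 0 of all 13703 genes passed for the slope difference in edgeR, where 527 genes, none of them members, had an unadjusted p under 0.05 and DESeq2 called 14 genes and no member. Leaving out the A375/211 6 h library left 0 of 14134 genes called in A375/211, and leaving out the A375 6 h library left 0 of 14100 called in A375, the members among them.

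**Figure D4:**
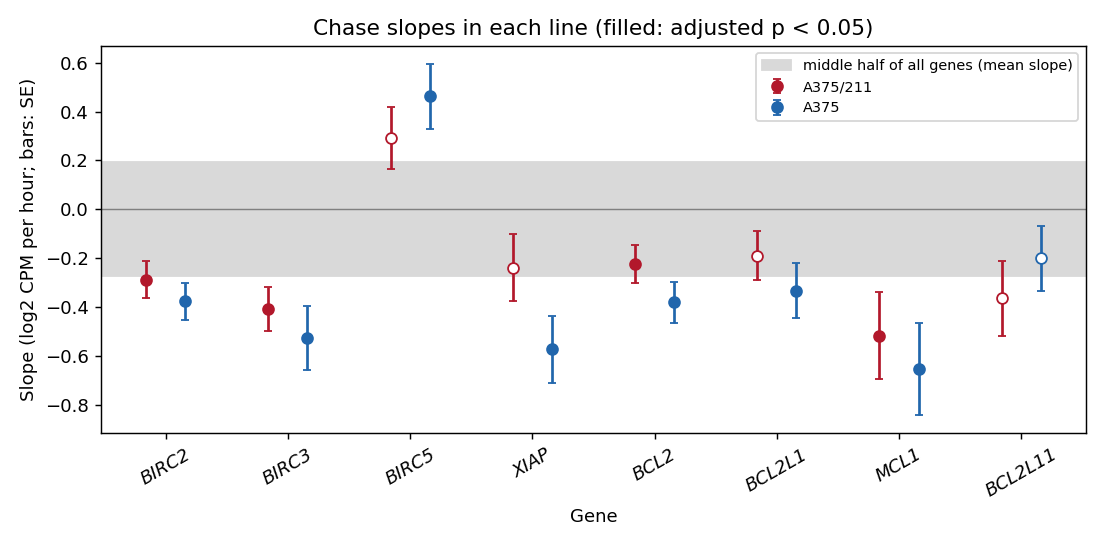
Slope of each member over the chase in A375/211 (red) and A375 (blue), in log2 CPM per hour with standard errors; filled points have an adjusted p under 0.05 and the grey band spans the range from the lower to the upper quartile of all genes' mean slopes, -0.28 to 0.19. All members except BIRC5 lie below 0, with XIAP the widest apart between the lines.

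The partners of these genes were counted in 9 lists with 54 other genes. In RNA-seq none of the 51 tested passed in edgeR; 9 had an unadjusted p under 0.05, and DESeq2 called TRAF1, TRAF3 and BOK. TRAF1, an adaptor that binds the cellular IAPs, had 101 and 103 CPM in A375/211, against 34.3 and 19.3 CPM in A375 (log2 1.93, SE 0.31, edgeR adjusted p = 0.106). TRAF3, which recruits them to degrade the kinase NIK, had 44.6 and 41.8 CPM in A375/211, against 21.0 and 20.5 CPM in A375 (log2 1.06, SE 0.17, edgeR adjusted p = 0.0968). The BAX relative BOK had 6.10 and 5.53 CPM in A375/211, against 11.8 and 11.9 CPM in A375 (log2 -1.03, SE 0.21, edgeR adjusted p = 0.153). In each of the 3 genes the lines did not overlap, as in 41% of all genes tested.

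In BRIC-seq with times matched, 4 of 39 partners were higher and 6 lower in A375/211, close to the shares of all genes tested (13.6% higher, 12.3% lower). In the NF-kB list TRAF1 (log2 1.42, SE 0.16) and NFKB1, the p105/p50 subunit (log2 1.38, SE 0.09), were higher, and TNFAIP3, the NF-kB inhibitor A20, was lower (log2 -0.71, SE 0.19). NFKB1 had 140.3, 184, 185 and 150.2 CPM in A375/211 at 0, 1, 3 and 6 h, against 60.4, 64.5, 67.2 and 60.7 CPM in A375, and its lines were apart at each time. The initiator caspase gene CASP8 (log2 0.48, SE 0.12) and cytochrome c, CYCS (log2 0.53, SE 0.07), were higher. With the glycolytic mRNAs held constant CASP8 was at -0.003 and CYCS at 0.05 and neither passed, while TRAF1 (0.93) and NFKB1 (0.89) did. CASP8 did not pass with total counts either.

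BIRC6, a giant IAP (log2 -0.43, SE 0.07), BTRC, a ligase subunit that acts on MCL1 (log2 -0.53, SE 0.12), and the survivin partners AURKB (log2 -0.86, SE 0.20) and CDCA8 (log2 -0.66, SE 0.17) were lower as well by edgeR, whereas DESeq2 did not call AURKB or CDCA8. AURKB had 2.99, 2.78, 3.28 and 4.17 CPM in A375/211, against 6.18, 4.23, 6.48 and 7.23 CPM in A375, from 11 to 47 counts a library. BIRC5 itself, at log2 -0.24, was not called.

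Over the chase 21 of the 39 partners fell and 5 rose (BAX, CYCS, NFKB2, USP9X, HUWE1), beside 34.4% of all genes falling and 29.9% rising. Among these was the whole tested death receptor list: all 7 fell, with a median slope of -0.25, among them the adaptor FADD (-0.70, SE 0.15), the kinase gene RIPK1 (-0.40, SE 0.06) and the caspase-8 inhibitor gene CFLAR (-0.21, SE 0.05). Of the 9 caspase and apoptosome genes 6 fell and CYCS rose. With the glycolytic mRNAs held constant 38 of the 39 were called falling and none rising.

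Some members share exonic bases with another gene, and the sources used do not state whether the counting used strand. ADAMTSL4, opposite MCL1, had between 1.27 and 15.4 CPM over the BRIC-seq libraries. At 0, 1, 3 and 6 h it had 9, 21, 33 and 63 counts in A375/211. In A375 it had 6, 6, 35 and 35 counts. MCL1 itself had 90 counts in A375/211 and 58 in A375 at 6 h. MIR4435-2HG, opposite BCL2L11, had 7.80 and 17.4 CPM in A375/211 RNA-seq, against 12.3 and 24.3 CPM in A375, and in BRIC-seq it lay at 15.2–25.6 CPM in A375/211 and at 10.2–17.1 CPM in A375, above or near the level of BCL2L11. ABALON, opposite BCL2L1, had 3 and 5 RNA-seq counts in A375/211, against 1 and 0 in A375, but 10, 21, 17 and 7 BRIC-seq counts in A375/211 at 0, 1, 3 and 6 h, against 12, 10, 17 and 4 in A375, near those of BCL2L1 itself. Reads from bases shared by such opposite pairs cannot be told apart without strand. MCL1 also shares exonic bases with ADAMTSL4-AS1 on its own strand, where strand would not separate the reads. ADAMTSL4-AS1 had 15, 22, 15 and 33 BRIC-seq counts in A375/211, against 10, 7, 13 and 25 in A375.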

How the data were processed

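Per the labels' protocols, total RNA of A375/211 and A375 was sequenced after stranded library preparation, and BrU-labelled RNA was captured after a chase. The authors deposited raw read counts per gene, 1 table per assay, with unequal library totals. Per the submitters' processing notes, HISAT2 2.1.0 and StringTie were used. The notes name hg19 and the series' design text hg38, which also names DESeq2, so positions come from GENCODE 44 (hg38), which gave 56558 of 60675 IDs (93.2%) a symbol, and not from the tables. Multi-mapping settings were not given in the sources used here. A BRIC-seq row that names no gene (0.000108% to 0.00122% of a library) was left out.

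Counts were tested with edgeR 4.0.16 in R 4.3.3 (quasi-likelihood test, TMM scaling, filterByExpr with a minimum count of 10 and a minimum total of 15, Benjamini-Hochberg adjustment over all genes tested, threshold 0.05). RNA-seq libraries were compared by line (2 residual degrees of freedom). In BRIC-seq the mean slope used hours with line as a covariate (5), the slopes per line and their difference a slope per line (4), and the line difference time as a factor (3), where times stand in for replicates. A fit over all 12 libraries, for genes that passed the filter in both assays, compared the line differences of the assays (5); it was added after the data were seen. CPM use TMM-scaled sizes, RPKM divide by GENCODE exon length, and intervals are exact at 95%. Steps were tested on simulated data. Replicate libraries differed beyond sampling noise, with chi-square per degree of freedom of 58.0 in A375/211 and 117 in A375. DESeq2 1.42.0, other scalings (RLE, total counts, 10 glycolytic mRNAs held constant), other filters (none; mean CPM of at least 5), a block by library letter and leaving out libraries were tried.

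The members and the lists of partners and markers were chosen with earlier results of these data known. All members, MIR211 and MITF were named, and partners were named where they passed in RNA-seq, the BRIC-seq line difference or the slope difference, or were among the 3 with the smallest p of a list, or rose or fell as one of 5 or fewer. Some items in these lists and sequences are not reported here.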

Additional observations from a re-analysis of the deposited data

Results flagged for a closer look

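The effect of the line on BIRC3 differed between the assays by a test of that difference. The log2 fold change of A375/211 over A375 was 5.38 (SE 0.33) in BrU-labelled RNA and 0.84 (SE 0.57) in total RNA, and the first minus the second was 4.58 (SE 0.71, edgeR adjusted p = 0.00856). A375/211 was higher at 4 of 4 chase times and in both RNA-seq libraries. The comparison was added after the values were seen.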

How the results depend on the processing

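The RNA-seq comparison called 73 genes and 1 member. It called 748 genes with DESeq2, 237 with no filter and 192 with the library letter as a replicate block, with 2 members each time (BIRC7 and BCL2A1), and 0 to 15 genes and 0 to 1 member with 1 library left out. The letters are not said to pair libraries, and differences between libraries a and b correlated at r = 0.238 between the lines across 19258 genes. For the mean slope (8815 genes, 8 members), leaving out both 6 h libraries gave 5197 genes and 4 members, and holding the glycolytic mRNAs constant turned BIRC5 to -0.11. For the slope in A375/211 (5877 genes, 4 members), RLE scaling gave 2 members, total counts 7, no filter 1, the glycolytic scaling 10888 genes and 7 members, both 6 h libraries left out 0 and 0, and single libraries left out 0 to 5870 genes and 0 to 4 members. For the slope in A375 (6465 genes, 7 members), the glycolytic scaling gave 10783 genes and turned BIRC5 to -0.027, both 0 h libraries left out gave 3 members, both 6 h libraries 0 genes and 0 members, and single libraries 0 to 6770 genes and 0 to 7 members. The slope difference (0 genes) gave 14 genes with DESeq2 and 1 with no filter. The BRIC-seq line difference (3546 genes, 4 members) gave 6787 genes with the glycolytic scaling, 2 members with no filter and 2 without both 6 h libraries, and 1739 to 2863 genes and 1 to 3 members with single libraries left out. The difference between the assays (678 genes, 1 member) gave 1331 genes and 2 members with DESeq2, and 273 to 855 genes and 0 to 1 member with single libraries left out. Except where an alternative leaves out libraries or keeps more genes, the cause was not tested. Over the members' own values, the side of the threshold was kept and no called value turned sign in 730 of 855 alternatives, while some values that were not called turned sign, such as BIRC2 in RNA-seq (0.02, and -0.31 without A375/211 library b). The 730 include values that were never called, such as all 127 of the slope difference. Called values were less stable. In the BRIC-seq line difference BCL2L11 lost its call in 11 of 16 alternatives, BCL2 and BIRC2 in 8 of 16 each, and BIRC3 in 0. BRIC-seq counts of 3 to 78 per library limit BCL2, BCL2L1, BCL2L11, the 0 h values of BIRC5 and A375 values of BIRC3.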

Other observations

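NAIP, an IAP gene with near-identical copies whose reads are therefore uncertain, was not tested in BRIC-seq. It had 0 counts at all 4 times in A375/211, against 119, 98, 0 and 0 counts at 0, 1, 3 and 6 h in A375. In RNA-seq it had 142 and 19 counts in A375/211, against 86 and 36 counts in A375, so the libraries of each line differed more than the lines.

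MITF in BrU-labelled RNA was at 58.7, 36.5, 14.0 and 9.07 CPM in A375/211 at 0, 1, 3 and 6 h, against 58.6, 48.2, 42.2 and 17.3 CPM in A375. The lines were level at 0 h and A375/211 was lower later, while the matched-time difference did not pass (log2 -0.70, SE 0.27, edgeR adjusted p = 0.103). In RNA-seq A375/211 was lower by a log2 of -2.50. In the test of BRIC-seq minus RNA-seq, added after the values were seen, 5 melanocyte lineage markers were tested. MITF, PMEL and DCT passed there as higher in BRIC-seq than in RNA-seq and SOX10 as lower, beside 5.35% of all genes.

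Of the 33 genes called higher in A375/211 by RNA-seq, 21 were tested in BRIC-seq and 19 were called higher there. Of the 40 called lower, 12 were tested, 4 were called lower and 2 were called higher. BIRC7 was among those not tested.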
